A study of Mus musculus with 4 samples.

Results

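The Hippo pathway genes examined in E13 mouse telencephalon were the coactivators Yap1 and Wwtr1, the DNA-binding factors Tead1, Tead2, Tead3 and Tead4, the kinases Lats1 and Lats2, and the targets Cyr61 and Ctgf. They were chosen by name, and all 10 were found among the 27293 genes of the count table. RNA had been sequenced from telencephalic tissue of C57BL/6 embryos at embryonic day 13 in 4 libraries, 2 with the genotype label WT (WT 1 and WT 2) and 2 with the label STINGf/f;Nestin-Cre (cKO 1 and cKO 2). Where a pair of values is given for a genotype, that of library 1 comes first. In the cKO embryos, Cre recombinase driven by the Nestin promoter, which is active in neural progenitors, recombines floxed alleles of the innate immune adaptor STING, so cells outside that lineage keep the gene. Whether the WT embryos carried floxed alleles or Cre, and whether a library came from 1 embryo or from several, is not given in the sources used here. The p-values therefore measure only the spread between these 4 samples, which may be technical.

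The Hippo pathway limits tissue growth. The kinases LATS1 and LATS2, activated by the MST kinases STK3 and STK4 with their adaptors SAV1 and MOB1, phosphorylate YAP and TAZ (the product of Wwtr1), which are then held in the cytoplasm or degraded. Unphosphorylated YAP and TAZ enter the nucleus, bind TEAD proteins and activate genes such as Cyr61 and Ctgf, which encode secreted matrix-associated proteins of the CCN family. In the embryonic brain, YAP is known from ventricular zone progenitors, where it promotes their proliferation. Much of the pathway acts through phosphorylation and location of proteins, which RNA counts do not measure.

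Total counts ran from 17209654 to 18533391 per library. The STING gene itself, listed as Tmem173, had 20 and 19 counts under the label WT and 18 and 22 under the label cKO (log2 fold change 0.02 with a 95% interval from -1.02 to 1.06). Its counts thus did not separate the genotypes, and they are not limited to the floxed exons, so WT and cKO are used here as the labels of the libraries. Markers of cortical neurons such as Tbr1 and Neurod6 were present in all libraries, with a summed level of 4806 to 5642 CPM (counts scaled to equal library totals), and so were ventral telencephalic markers such as the Dlx genes (661 to 1041 CPM). WT 1 stood apart. It was the highest library for 11 of 11 markers of meninges and mesenchyme, whose summed level was 315 CPM there, 59.6 in WT 2 and 84.3 and 46.6 in the cKO libraries, and for 8 of 8 markers of choroid plexus and cortical hem, with 59.2 CPM against 8.28 to 11.3. It was also highest for 5 of 5 erythroid genes (758 against 296 to 448 CPM) and 4 of 6 microglial genes (43.7 against 30.7 to 34.6 CPM), while markers of intermediate progenitors summed to 724 and 730 CPM under WT and 794 and 781 under cKO. In bulk tissue, more cells of a type and more RNA per cell cannot be told apart. WT 2 stood apart in another way, having 0 counts over 4 Y-linked genes where the other libraries had 1848 to 3002, and its title carries the letters nes where that of WT 1 has wt. The cKO libraries differed from each other as well, by a chi-square per degree of freedom of 38.7 over genes against 13.4 for the WT pair, and cKO 1 was the lowest library for 8 of 9 ventral markers (661 against 980 to 1041 CPM in sum).

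No member of the group differed between cKO and WT at the study's thresholds (0 of 10 genes in edgeR's quasi-likelihood test, and 0 in DESeq2). The thresholds are 2-fold or more with a p, before adjustment, no higher than 0.05. Across all 16145 genes tested, 131 (0.811%) were called at these thresholds, 108 (0.669%) lower and 23 (0.142%) higher in cKO. Without WT 1 the split turned around, with more genes called higher than lower. That fit leaves WT 2 as the only WT library. WT 2 had 0 counts over the 4 Y-linked genes, and cKO 1 and cKO 2 had 3002 and 1848. At an adjusted p under 0.05 the share was 0% of all genes in both tools, although 199 genes in edgeR and 127 in DESeq2 had an unadjusted p under 0.05, and the adjusted p of every member was 0.9999. None of the 10 members had an unadjusted p under 0.05 in either tool, and their p-values in edgeR's test ran from 0.0978 for Ctgf to 0.957 for Tead1. For 7 members the 95% interval of the log2 fold change lay between -1 and 1, which leaves out a 2-fold difference in either direction. These were Yap1, Wwtr1, Tead1, Tead2, Tead3, Lats1 and Cyr61. Over all genes tested, 11336 of 16145 had such an interval, a share close to that of the members. The intervals of Tead4, Lats2 and Ctgf reached below -1. In 9 of the 10 genes, all but Tead4, the larger fold between 2 libraries of the same genotype exceeded the fold between the group means. Folds between single libraries vary more than folds between means of 2. The share over all genes was not computed, so no conclusion is drawn from this count.

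**Figure D1:**
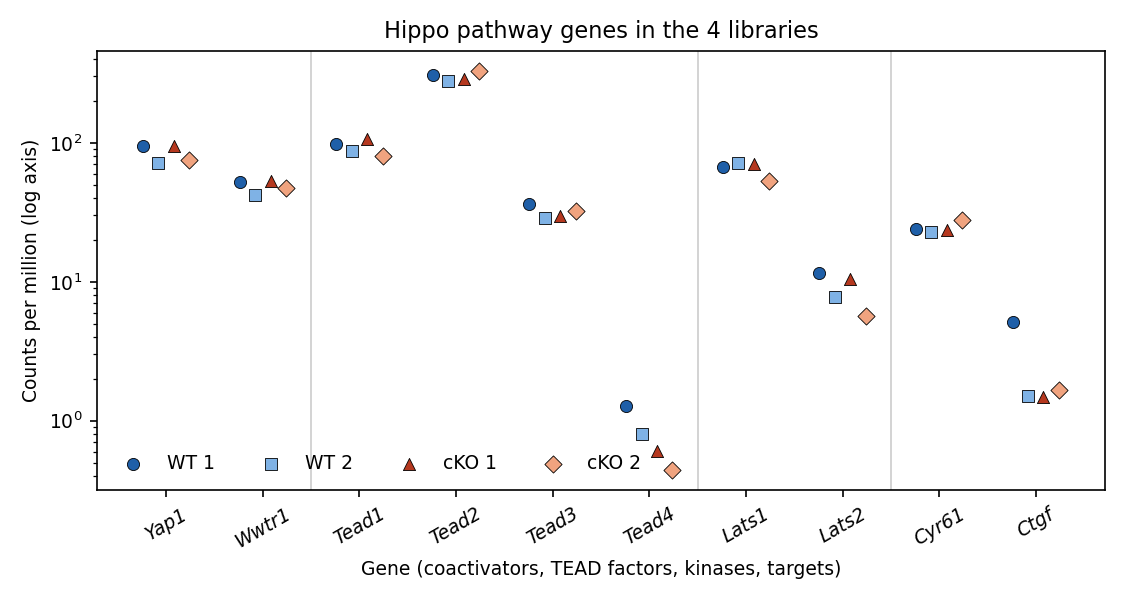
Level of each Hippo pathway gene in CPM (log axis) in WT 1, WT 2, cKO 1 and cKO 2, with 1 point per library, ordered as coactivators, TEAD factors, kinases and targets. The points of the groups overlap for 9 of 10 genes, Tead4 lies lower in both cKO libraries, and Ctgf is high in WT 1 alone.

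Neither coactivator differed between the genotypes beyond the spread of the libraries. Yap1 (ENSMUSG00000053110, GRCm38 chromosome 9, 7931999 to 8004596, minus strand, the build of all positions given here) encodes the transcriptional coactivator that gives the pathway its main output. The WT libraries had 94.2 and 71.0 CPM and the cKO libraries 95.2 and 75.8. The groups interleaved, with means of 82.6 ± 16.4 and 85.5 ± 13.8 CPM for WT and cKO (SD, n = 2 each). Its log2 fold change of 0.06 had a standard error of 0.19 and a 95% interval from -0.37 to 0.49. The spread lay within the genotypes instead. WT 1 was 1.33 times as high as WT 2 (exact Clopper-Pearson 95% interval from 1.23 to 1.43) and cKO 1 was 1.26 times as high as cKO 2 (1.17 to 1.35), intervals that cover counting error only.

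Wwtr1 (ENSMUSG00000027803, chromosome 3, 57455649 to 57575910, minus strand) encodes TAZ, the paralog of YAP. Its level was 51.8 and 42.3 CPM under WT and 53.2 and 47.3 under cKO. WT 2 was the lowest and cKO 1 the highest library, and WT 1 lay between those of cKO. A log2 fold change of 0.10 was fitted (standard error 0.17, 95% interval from -0.29 to 0.50). Per kilobase of annotated exon, the ratio of Wwtr1 to Yap1 was 1.11 ± 0.0627 for WT and 1.15 ± 0.0885 for cKO (SD, n = 2 each), so the balance of the coactivators differed by less than its spread. Which of them was higher depended on the length used, since the mean ratio over the 4 libraries was 0.655 when each gene was scaled to its longest transcript.

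TEAD proteins bind the sequence CATTCC in the promoters and enhancers of their targets. Read from the opposite strand it is GGAATG. The 250 bases before each RefSeq transcription start on GRCm38.p6 were searched for these 6 letters in both directions. Windows were found for 7 of the 10 genes, under the newer symbol Ccn1 in the case of Cyr61, and 4 of the 7 held the motif in at least 1 window (Yap1, Wwtr1, Tead3 and Cyr61), against 14.4% of the 27025 genes with a window. Tead1, Tead4 and Ctgf had no window, so they were not searched. Of all 32851 windows, 12.6% held the motif. Stretches of 60 bases from these 4 promoters are shown 5′ to 3′ on the strand of the gene, with the motif in capitals, because they place the letters of the TEAD motif beside genes of the pathway itself. A match of 6 letters is not a binding site. The stretches lie at chr3:145650056-145650115 (Cyr61), chr9:8004705-8004764 (Yap1), chr3:57576014-57576073 (Wwtr1) and chr17:28350955-28351014 (Tead3), all on the minus strand. The motif begins 103 bases before the start of Cyr61 and 141 before that of Yap1. The stretch of Tead3 has it 182 bases before a start. The window of another Tead3 start holds a tandem pair of the motif, 123 and 114 bases before that start. The pair lies within the annotated span of Tead3, so it is not printed. The 4 stretches shown lie outside the GENCODE M21 span of their own gene.
Cyr61: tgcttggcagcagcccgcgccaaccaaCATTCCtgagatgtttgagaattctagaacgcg
Yap1: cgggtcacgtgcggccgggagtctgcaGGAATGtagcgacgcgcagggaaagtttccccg
Wwtr1: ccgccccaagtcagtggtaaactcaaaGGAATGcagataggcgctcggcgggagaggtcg
Tead3: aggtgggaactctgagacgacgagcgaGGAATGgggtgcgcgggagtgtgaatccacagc

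The TEAD family was dominated by Tead2. Scaled to exon length, its level was 64.0 and 58.3 CPM per kilobase under WT and 60.3 and 68.9 under cKO, with a 4-library mean above that of 95.7% of the 16120 tested genes that have an annotated length. Tead2 made up 83.7% ± 0.686 of the summed TEAD level per kilobase under WT and 84.7% ± 2.49 under cKO (SD, n = 2 each). Tead1 followed with 9.38% ± 0.0371 in WT and 9.08% ± 2.38 in cKO, and Tead3 with 6.57% ± 0.552 and 6.07% ± 0.0549 (SD, n = 2 each). By this length the order of these 3 paralogs was the same in all 4 libraries, whereas by the longest transcript Tead1 lay above Tead3 in 2 of 4. With length left out, Tead2 still held 70.5% of the TEAD reads.

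**Figure D2:**
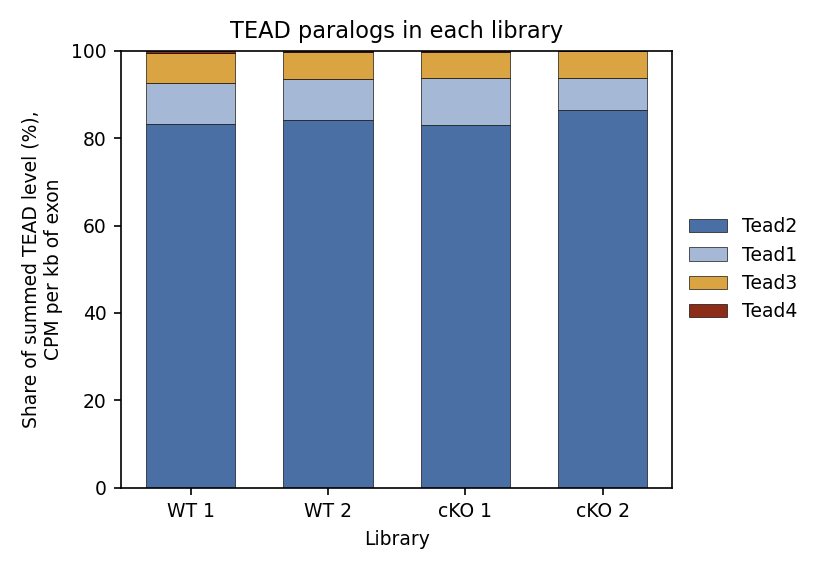
Share of each TEAD paralog in the summed TEAD level (%, CPM per kilobase of exon), with 1 stacked bar per library. Tead2 fills 82.9% to 86.4% of each bar, Tead1 and Tead3 most of the rest, and Tead4 less than can be seen at this scale (0.154% to 0.462%).

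Tead2 (ENSMUSG00000030796, chromosome 7, 45215753 to 45233644) is the paralog known from early embryonic and neural tissue. With 5275 and 5176 counts in the WT libraries and 5264 and 5967 in those of cKO, it was the most deeply counted of the 10 genes. The cKO libraries held both the highest and the second lowest CPM, and the log2 fold change came to 0.09 (standard error 0.16, 95% interval from -0.27 to 0.45). Tead1 (ENSMUSG00000055320, chromosome 7, 112679318 to 112906807), a broadly expressed paralog, stood at 98.2 and 87.9 CPM in WT and at 106 and 80.0 in cKO. For Tead1 the cKO libraries enclosed the WT libraries, with a log2 fold change of 0.01 (standard error 0.17). Tead3 (ENSMUSG00000002249, chromosome 17, 28331671 to 28350817) stood at 36.0 and 28.8 CPM in WT and at 29.8 and 32.3 in cKO. There the WT libraries enclosed those of cKO, and a log2 fold change of -0.05 was found (standard error 0.19).

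Tead4 (ENSMUSG00000030353, chromosome 6, 128224288 to 128300823, minus strand), best known for its part in forming the trophectoderm, was the scarcest member, with 22 and 15 counts under the label WT and 11 and 8 under the label cKO. In CPM these were 1.28 and 0.809 in WT and 0.603 and 0.442 in cKO. The groups did not overlap, cKO lying below WT, the only such case among the 10 genes, while 11.2% of all genes tested showed this order and 10.4% the opposite one. Its log2 fold change of -0.97 had a standard error of 0.53, a 95% interval from -2.20 to 0.25 and an unadjusted p of 0.104 from edgeR's test, so the difference did not pass. With each library left out in turn it ran from -1.25 to -0.63. At this depth, the ratio of WT 1 to WT 2 alone had a counting interval from 0.783 to 3.27. Tead4 shared 10 of its 3681 stretches of 50 bases with Tead3, and no other pair of the 10 genes shared any.

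The kinases showed no called difference. Lats1 (ENSMUSG00000040021, chromosome 10, 7681214 to 7716460) had 66.9 and 71.5 CPM in the WT libraries and 70.2 and 52.8 in the cKO libraries. The single low library was cKO 2, and cKO 1 lay between the WT libraries. Here the log2 fold change was -0.16 (standard error 0.18, 95% interval from -0.58 to 0.25). It was -0.37 without cKO 1 and 0.03 without cKO 2. Per kilobase of exon, Lats1 averaged 8.96 CPM over the 4 libraries, and Lats2 averaged 1.27.

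Lats2 (ENSMUSG00000021959, chromosome 14, 57689662 to 57758388, minus strand), which is itself induced by YAP and thus closes a negative feedback loop, had 199 and 144 counts under WT and 190 and 103 under cKO. Library 1 was the higher of each pair, and the groups overlapped. It varied by 1.83-fold between the 2 cKO libraries (exact Clopper-Pearson interval from 1.43 to 2.35, counting error only) and by 1.49-fold between the 2 WT libraries (1.19 to 1.86), while the means of the groups were 9.67 and 8.06 CPM. The genotypes differed by -0.25 on the log2 scale (standard error 0.35, 95% interval from -1.05 to 0.54). The difference was -0.74 without cKO 1 and 0.12 without cKO 2. In GENCODE M21 the gene Gm49361 covers 2955 bases of the exons of Lats2 on the same strand, and reads in that stretch cannot be assigned to 1 of the 2.

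Of the classical targets, Cyr61 was nearly level over the libraries, and Ctgf was high in a single one. Cyr61 (ENSMUSG00000028195, chromosome 3, 145646976 to 145649981, minus strand), now also named Ccn1, had 415 and 423 counts under WT and 431 and 503 under cKO. In CPM these were 24.1 and 22.8, and 23.6 and 27.8, so cKO 2 was the highest library and cKO 1 lay between those of WT. Means of 23.5 ± 0.913 CPM for WT and 25.7 ± 2.95 for cKO (SD, n = 2 each) gave a log2 fold change of 0.14 (standard error 0.19, 95% interval from -0.29 to 0.57). Scaled to exon length, Cyr61 was the second most abundant of the 10 genes, at 12.2 CPM per kilobase. Cyr61 is also an immediate early gene, a class that responds within minutes to stimulation or handling. Of the 14 immediate early genes listed, 11 could be tested and 0 were called, against 0.811% of all genes tested. The median log2 fold change was -0.06 for the 11 against -0.01 for all genes tested. Of the 11, 0 had an unadjusted p under 0.05 in edgeR and in DESeq2. Jun, Btg2 and Dusp1, the most abundant of them, had log2 fold changes of 0.25, 0.07 and -0.13, and Egr3 had the largest, -0.78 (unadjusted p of 0.0526). Ier3 and Fosl1 followed with -0.39 and -0.31.

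Ctgf (ENSMUSG00000019997, chromosome 10, 24595442 to 24598683), also named Ccn2, had 89 and 28 counts under WT and 27 and 30 under cKO. WT 1 was the high library, and WT 2 lay between the cKO libraries. The mean level was 3.34 ± 2.59 CPM for WT and 1.57 ± 0.126 for cKO (SD, n = 2 each). Its log2 fold change, -1.07, was the largest of the 10 genes, with a standard error of 0.57, a 95% interval from -2.38 to 0.25 and an unadjusted p of 0.0978 in edgeR's test. Leaving out WT 1 brought it to 0.05. Leaving out WT 2 instead, so that WT 1 was the only WT library, brought it to -1.68. Fitting the table with no filter on low counts took Ctgf past the thresholds, with an unadjusted p of 0.0113 in edgeR's test. WT 1 was 3.42 times as high as WT 2 (exact Clopper-Pearson interval from 2.22 to 5.44, counting error only). The antisense gene Gm15270 overlaps 665 bases of the exons of Ctgf and had 2 counts in WT 1 and 0 in the other libraries.

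**Figure D3:**
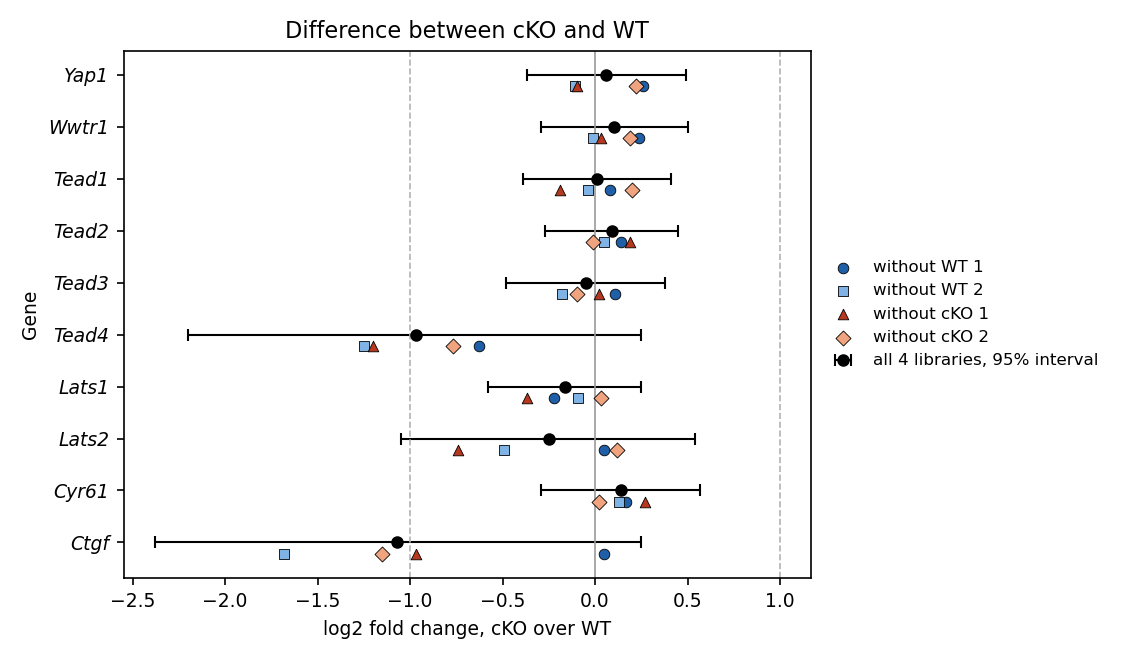
log2 fold change of each gene, cKO over WT, with the 95% interval of edgeR's fit of all 4 libraries (black) and the value with each library left out (coloured). Dashed lines mark a 2-fold difference. For Ctgf the value without WT 1 is 0.05, while the other 3 lie near or below -1, and for 8 genes the sign changes with at least 1 library.

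The genes closest to Ctgf over the 4 libraries were looked up by the root mean square distance of centred log2 CPM, among 11346 genes with a mean of at least 100 counts. They were Igf2 (distance 0.100), Col6a2 (0.154), Slc16a3 (0.168), Enpp2 (0.196) and Gpc3 (0.200). Igf2, which encodes insulin-like growth factor II, had 3542 counts in WT 1 and 952, 1098 and 1126 in WT 2, cKO 1 and cKO 2. Col6a2, a chain of collagen VI, had 286 in WT 1 and 67, 79 and 85 in the others. All 5 genes were highest in WT 1, which follows from their choice by likeness to Ctgf. WT 1 also had the highest summed level of the meningeal and mesenchymal markers (3.73 times the next library). Its choroid plexus and hem markers summed to 5.25 times the next library. Ctgf is known from fibroblasts and vessels as well as from neural tissue. Endothelial markers summed to 203 and 158 CPM under WT and to 141 and 139 under cKO, with 6 of 8 highest in WT 1, and pericyte markers to 126 and 88.3 against 85.3 and 82.1 CPM, with 5 of 7 highest in WT 1. Col1a1 and Col1a2 (log2 fold changes -2.08 and -1.59) were called lower in cKO, 2 of 8 tested meningeal and mesenchymal markers. Of 5 tested choroid plexus and hem markers, 3 were called lower, Htr2c, Aqp1 and Otx2 (-3.44, -2.66 and -1.33). Acta2 (-1.69) was the 1 called lower of 6 tested pericyte markers, and 0 of 8 endothelial markers were called. In these 4 lists 0 genes were called higher. Of all genes tested, 0.669% were called lower and 0.142% higher. The called markers were all highest in WT 1, and each had an adjusted p of 0.9999 in edgeR's test. The pericyte marker Tagln was at 0 in 3 libraries and the choroid plexus marker Folr1 at 0 in WT 2. The part of these cells in the level of Ctgf was not tested. For Cyr61, whose log2 CPM ranged over 0.285 only, the closest of 11345 genes were Gabarap, 1810055G02Rik, Tkt, Rps27a and Sapcd2, at distances from 0.00274 to 0.00735. With 4 libraries, such a list describes likeness and nothing more.

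**Figure D4:**
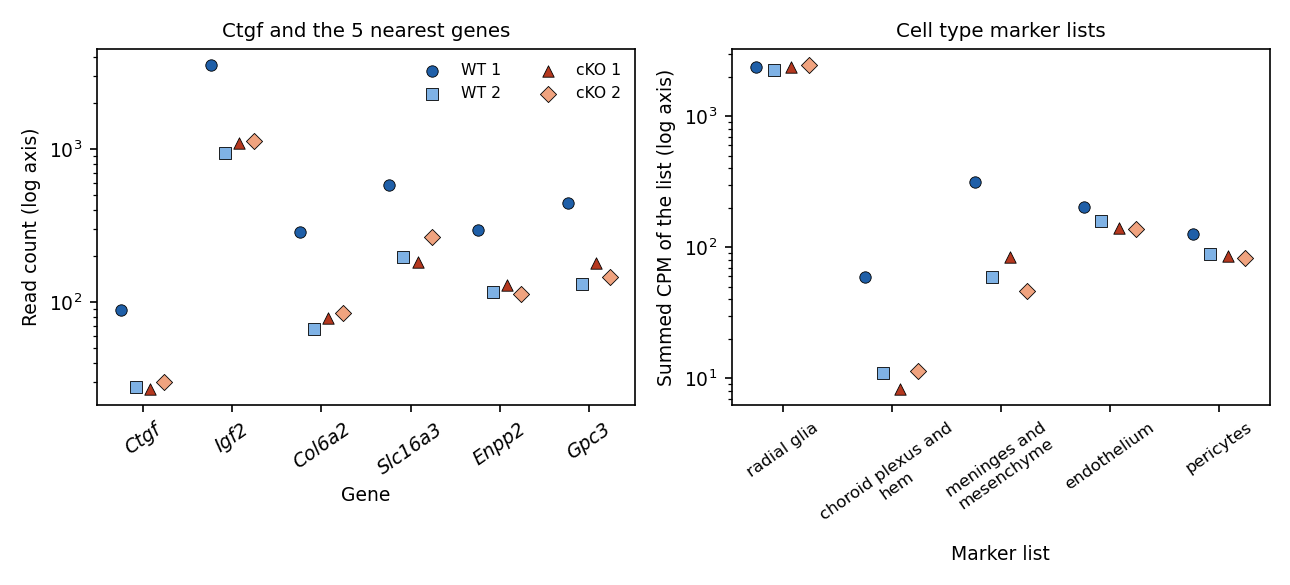
Left, read counts (log axis) of Ctgf and of the 5 genes nearest to it in each library. Right, summed CPM (log axis) of 5 cell type marker lists. WT 1 is the highest point for Ctgf, its 5 nearest genes and the meningeal, choroid plexus, endothelial and pericyte lists, and not for the radial glia list (2242 to 2448 CPM).

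The rest of the pathway was read from a list of 32 genes, which takes in the upstream kinases and their adaptors, cell junction proteins that restrain YAP, and the cadherins Fat1, Fat4 and Dchs1. Of the 30 that could be tested, 0 were called in either direction, against 0.811% of all genes tested. In both edgeR and DESeq2, 0 had an unadjusted p under 0.05. The 95% interval lay between -1 and 1 for 28 of them, against 11336 of all 16145 genes tested. These 30 genes had a median log2 fold change of 0.01, with values from -0.56 to 0.41. The groups did not overlap in 5 of them, with cKO below in 3 of 30 (against 11.2% of all genes tested) and above in 2 of 30 (6.67%, against 10.4%). Map4k4, an upstream kinase that can phosphorylate LATS, was the most abundant by counts, with 11556 and 13944 under WT and 13420 and 12616 under cKO (log2 fold change 0.02). Dchs1, a protocadherin that binds FAT4, and Nf2, which brings LATS to the membrane, had log2 fold changes of 0.05 and 0.00. The MST kinases Stk3 and Stk4 had -0.24 and 0.01. The largest values belonged to Ptpn14 (-0.56, unadjusted p of 0.178), a phosphatase that binds YAP, to Amot (-0.44, p of 0.112), which holds YAP at junctions, and to Rassf1 (0.41, p of 0.115), a scaffold of the MST kinases. Ptpn14 had 192 and 94 counts under WT and 95 and 102 under cKO, so WT 1 was again the high library. Rassf1 had 145 and 171 counts against 210 and 213, so that cKO lay above WT. Amot had 702 and 730 against 674 and 398, with cKO below. Vgll2 and Vgll3 had at most 16 counts in any library and were left out of the test.

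A further 20 genes known as YAP and TAZ targets in other cell types were set beside Cyr61 and Ctgf, and 19 were matched to the table (Ankrd1 was not analysed here). Of these 19, 0 were called (0 with an unadjusted p under 0.05 in either tool), against 0.811% of all genes tested. The log2 fold change was below 0 in 14 and above 0 in 5, none of them past the test (73.7% below 0, against 52.1% of all genes tested), with a median log2 fold change of -0.09 against -0.01 for all genes tested, and 9 of the 19 (47.4%, against 27.3% of all genes tested) had their highest level in WT 1. The most abundant were Amotl2, an inhibitor of YAP that is also its target, with a log2 fold change of -0.03, Fjx1 (-0.09) and Arhgef17 (0.01). The largest values were -0.90 for Myof (unadjusted p of 0.132), -0.77 for Nt5e (0.283) and -0.56 for Ptpn14, which is also on the list above. Myof, a membrane repair protein, had 62 and 24 counts against 22 and 25, with the same high library as Ctgf. Without WT 2, which leaves WT 1 as the only WT library, the log2 fold changes of Myof and Ptpn14 were -1.44 and -1.01.

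The other CCN family genes held the only call among the 5 pathway lists, while 0.811% of all genes tested were called. Wisp1 (Ccn4), a WNT-induced matrix protein, had 35 and 18 counts in the libraries labelled WT and 7 and 4 in those labelled cKO, and so was lower in both of the latter. The log2 fold change of -2.27 was called (standard error 0.62, 95% interval from -3.69 to -0.85), with an unadjusted p of 0.00619 and an adjusted p of 0.9999 in edgeR's quasi-likelihood test. Without WT 1 it was -1.66, and the unadjusted p was then 0.0983. Nov (Ccn3) and Wisp3 (Ccn6) had log2 fold changes of -0.22 and -0.15, and Wisp2 (Ccn5) had at most 2 counts. All 4 of these genes had their highest level in WT 1, as did 27.3% of all genes tested. For Wisp3 the WT libraries were nearly level, at 1.57 CPM in WT 1 and 1.51 in WT 2.

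**Figure D5:**
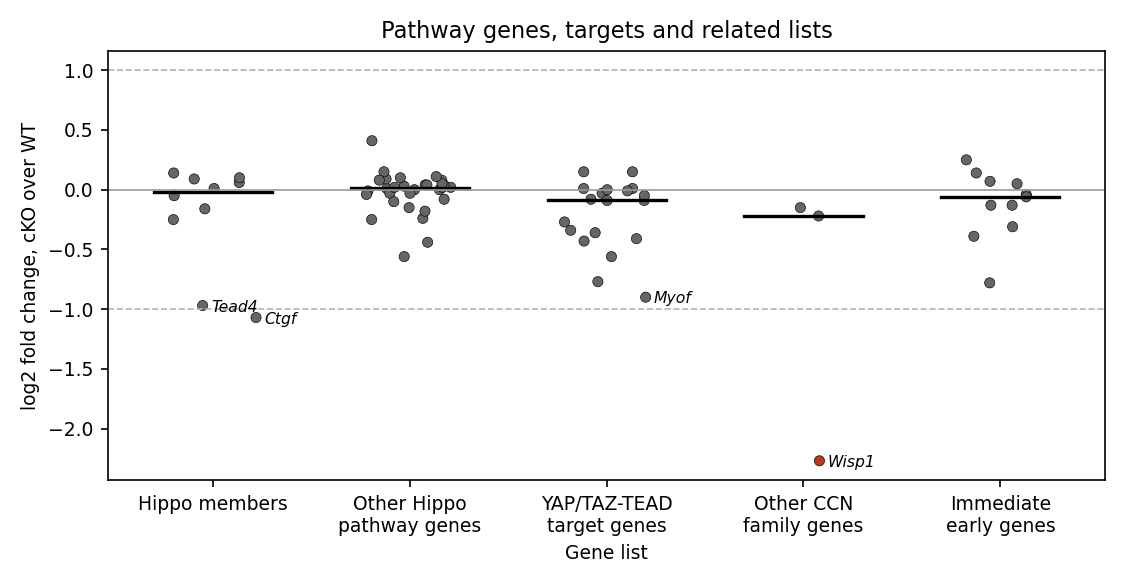
log2 fold change, cKO over WT, of each tested gene in 5 lists, with the median of each list as a bar and 2-fold differences as dashed lines. Wisp1 (red) is the only gene called, and Tead4, Ctgf and Myof are named as the next lowest genes.

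Ordered by level per kilobase of exon, the 10 genes ran from Tead2 (62.9 CPM per kilobase over the 4 libraries) through Cyr61 (12.2), Wwtr1 (10.2), Yap1 (9.08), Lats1 (8.96), Tead1 (6.86), Tead3 (4.72), Lats2 (1.27) and Ctgf (0.858) to Tead4 (0.218). Among neighbours in this order, the ranges over libraries overlapped between Wwtr1 and Yap1, Yap1 and Lats1, Lats1 and Tead1, and Lats2 and Ctgf. They also overlapped between Wwtr1 and Lats1, and between Yap1 and Tead1. The levels of these pairs did not separate across libraries. Within each library, Wwtr1 lay above Yap1 and Lats1 above Tead1 in 4 of 4, and Yap1 above Lats1 and Lats2 above Ctgf in 3 of 4. Tead2 lay above and Tead4 below all others in each library. Scaled to the longest transcript instead, Yap1 came second with 15.9, above Cyr61 with 12.2 CPM per kilobase, Wwtr1 lay above Yap1 in 0 of 4 libraries and Lats1 above Tead1 in 1 of 4. Of the 16120 genes with a length, 4.04% lay below Tead4, and 64.3% below Yap1.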

How the data were processed

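The libraries and groups were taken from the sample labels. Deposited values were raw counts of reads per gene in 1 table of all 4 libraries, made by the authors without normalization. The submitters' processing notes name TopHat2 2.0.12, Bowtie2 2.2.3, HTSeq 0.6.0 and build mm9, yet 97.2% of the gene positions match GENCODE M21 (GRCm38), so positions were read as GRCm38. Strand is not given in the sources used here. Of 27304 rows, 11 (0.0403%) were blank and left out. The second deposited table, of cKO 1 and WT 1, was not used, nor were the authors' fold changes and p-values.

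Differential expression was tested across all genes with edgeR 4.0.16 in R 4.3.3 (TMM, filterByExpr, quasi-likelihood test, no covariate, Benjamini-Hochberg adjustment). Fold changes are cKO over WT, and CPM is the count scaled to equal library totals. An exact permutation test on 2 against 2 libraries cannot give a p below 0.333. DESeq2 1.42.0, other normalizations, filters and thresholds, a replicate block and leaving out each library were alternatives. In fits without 1 library, the lone library of its group was assumed to vary like the others. Lengths were the union of exons in GENCODE M21. Promoter windows were those of RefSeq. The code was tested on simulated data.

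The members and lists were chosen with earlier results of these data known. Named genes were the 10 members, every called gene of a pathway list, the 3 best counted genes and the 3 of largest absolute fold change per list, and the 5 genes nearest to Cyr61 and to Ctgf. Stk3, Stk4, Vgll2, Vgll3 and Wisp2 were named after their values were seen, and of the marker lists only called genes and examples were named. Of the 11 marker lists, the result of 1 is not reported here.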

Additional observations from a re-analysis of the deposited data

How the results depend on the processing

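The number of genes called among all genes tested (131) was 405 when every gene with at least 1 count was kept, 72 where each library had to hold at least 10 counts, 65 with DESeq2 and 14 at an unadjusted p of at most 0.01, and it ran from 104 to 531 with a library left out (531 without cKO 1 and 476 without WT 2). Lower calls outnumbered higher ones in every setting run but that without WT 1 (47 lower, 57 higher). Genes with an adjusted p under 0.05 (0) numbered 65 with no filter and from 0 to 116 with a library left out. The cause was not tested. Among the 10 members, 1 (Ctgf) was called with no filter, and from 0 to 1 with a library left out. The other Hippo pathway genes gave 0 to 1, the YAP and TAZ targets 0 to 2 and the other CCN genes 0 to 1 with a library left out, and the CCN genes 0 under the minimum of 10 counts per library, where Wisp1 was not tested.

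Of 59 values of the members' log2 fold change under other normalizations, filters, DESeq2 and the block, 58 kept their direction and their side of the thresholds. With a library left out, 12 of 40 changed sign, over 8 members. The ranges were -0.11 to 0.26 for Yap1, -0.01 to 0.24 for Wwtr1, -0.19 to 0.20 for Tead1, -0.01 to 0.19 for Tead2, -0.18 to 0.11 for Tead3, -0.37 to 0.03 for Lats1, -0.74 to 0.12 for Lats2 and -1.68 to 0.05 for Ctgf.

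Both genotypes use the replicate numbers 1 and 2. No source ties a number to a litter or day, and the correlation over genes between libraries of the same number, each as its deviation from the group mean, was 0.138. With the replicate block 208 genes were called, 5 genes had an adjusted p under 0.05, and 0 of the 10 members were called.

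The mean TEAD shares over the 4 libraries were 21.9% for Tead1, 70.5% for Tead2, 7.42% for Tead3 and 0.184% for Tead4 in counts without a length correction, and with the longest transcript those of Tead1 and Tead3 were 8.74% and 8.56%. The ratio of Wwtr1 to Yap1 was 0.582 without a length correction and 0.655 with the longest transcript. With 8 to 22 counts, Tead4 could show only large differences.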

Other observations

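Yap1, Wwtr1, Tead1, Tead4 and Lats2 had a higher level in the library numbered 1 than in that numbered 2 in both genotypes, which was noticed after the values were seen. That is 5 of the 10 members, against 28.7% of the 16145 genes tested, and 0 of the members had the opposite order in both genotypes, against 24.1%. For Wwtr1 the ratio of the library numbered 1 to that numbered 2 was 1.23 in WT (exact Clopper-Pearson 95% interval from 1.11 to 1.35) and 1.13 in cKO (1.03 to 1.24), and for Tead1 it was 1.12 (1.04 to 1.20) and 1.33 (1.24 to 1.42), all intervals covering counting error only. For Tead4 the intervals included 1 in both genotypes.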
